A study of Mus musculus with 9 samples.

Results

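The genes described here make, break down or sense prostaglandins. They are the 10 rows of the deposited RNA-seq table, out of 54146 listed genes, whose gene symbol is Ptgs1, Ptgs2, Ptges, Ptges2, Ptges3, Hpgd, Ptgr1, Ptger4, Pla2g2a or Pla2g4a. Expression was compared in the colon of 9 mice of the C57BL/6J strain at 15 wk of age, 5 of them ApcMin/+ and 4 ApcMin/+; p16cis/cis. The first group held 3 males and 2 females, the second 1 male and 3 females. Every mouse of both genotypes was heterozygous for the germline Min mutation of Apc, the tumor suppressor lost in most colorectal adenomas. The ApcMin/+; p16cis/cis mice also carried, on both alleles, a knocked-in DNA element that spreads methylation over the p16 promoter, so the comparison asks what p16 epimutation adds to an Apc mutation. The knock-in is in the germline and so is present in every cell type of the sample. No mouse with wild-type Apc was analyzed here, and hence levels in a normal colon are not given. The labels name the tissue colonic mucosa and the methods describe RNA from colonic crypts. The study's figure caption calls this mucosa normal-appearing, although its discussion speaks of RNA-seq of colon tumors. Each mouse was 1 replicate, and the libraries held 13523500 to 17885918 reads on genes.

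Prostaglandins are lipid signals made on demand. A phospholipase A2 frees arachidonic acid from membranes, a cyclooxygenase turns it into prostaglandin H2, and terminal synthases convert that intermediate into prostaglandin E2 and its relatives. Hpgd, the 15-hydroxyprostaglandin dehydrogenase, starts breakdown by oxidizing the hydroxyl group that receptors recognize, and the reductases Ptgr1 and Ptgr2 act on the resulting 15-keto product. In the colon, prostaglandin E2 acts through receptors such as Ptger4 on the epithelium, the inducible cyclooxygenase Ptgs2 is known to be raised in many colorectal tumors, and HPGD is known to be low in them. Pla2g2a is known as Mom1, a modifier of tumor number in Min mice, and the C57BL/6 strain carries an inactivating allele of it.

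Hpgd was the 1 member whose difference between the genotypes passed the test over all genes, and it was lower in ApcMin/+; p16cis/cis mice. The gene (ENSMUSG00000031613.9) lies on chromosome 8 from 56294585 to 56321043 on the plus strand of GRCm38, in the GENCODE annotation. The reductase gene Ptgr2, an enzyme of the next step of the same breakdown route and not one of the 10 members, was also lower. It came from a wider list of 46 genes, where 14.3% of those tested were called, against 16.9% of all genes tested. The member Ptgr1, also a reductase of this route, was not called (log2 fold change 0.10, limma, adjusted p = 0.701). The starts of Hpgd and Ptgr2, 300 bases each in RefSeq on GRCm38.p6, are printed 5′ to 3′ because these are the 2 breakdown genes that passed the test. The first window is chr8:56294302-56294601 on the plus strand and the second chr12:84285046-84285345 on the plus strand, and capitals mark a TATAAA match.
Hpgd: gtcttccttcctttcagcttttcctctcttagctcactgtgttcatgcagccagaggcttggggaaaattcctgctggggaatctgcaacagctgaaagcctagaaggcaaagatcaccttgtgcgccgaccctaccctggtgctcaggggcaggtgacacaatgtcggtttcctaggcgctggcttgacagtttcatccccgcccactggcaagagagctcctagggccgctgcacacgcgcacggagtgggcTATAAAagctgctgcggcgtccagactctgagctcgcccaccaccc
Ptgr2: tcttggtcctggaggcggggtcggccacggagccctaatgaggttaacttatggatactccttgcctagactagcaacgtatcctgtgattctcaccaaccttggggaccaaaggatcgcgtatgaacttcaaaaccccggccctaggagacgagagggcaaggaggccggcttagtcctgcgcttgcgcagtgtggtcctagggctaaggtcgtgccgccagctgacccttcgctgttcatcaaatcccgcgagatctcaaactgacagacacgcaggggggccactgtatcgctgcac
The 6 capital letters of the Hpgd window begin 29 bases upstream of the GENCODE start of the gene, at position 5 when the RefSeq start is counted as 1. Motifs searched on both strands were TATAAA, held by 13.6% of the 32851 RefSeq promoter windows of this length, CCAAT (37.4%), AGGTCA (16.3%) and TTCNNNGAA (8.30%). The Ptgr2 window held none of these letters. The windows of Hpgd and Ptgr2 held 12 and 18 CG dinucleotides, against a median of 7 over all promoter windows (quartiles 3 and 20). Both counts lay between the quartiles, at percentiles 60.4 and 70.3. RefSeq promoter windows were matched for 9 of the 10 members, the exception being Pla2g2a. No methylation data are joined to these windows here, so the sequences are a description.

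Hpgd was also the most abundant member. Per kb of its longest coding transcript, the ApcMin/+ mice had a level of 2934 ± 443 normalized counts (SD, n = 5) for Hpgd, and the next gene, Pla2g4a, had 404 ± 56.1. The lowest of the ApcMin/+ mice for Hpgd (2569 per kb) was far above the highest for Pla2g4a (469 per kb). Below Hpgd came 6 genes whose ranges overlapped from one to the next on this scale, namely Pla2g4a, Pla2g2a (356 ± 199.98), Ptges3 (289 ± 71.0), Ptger4 (245 ± 38.1), Ptgr1 (221 ± 25.8) and Ptges2 (186 ± 34.7). Pla2g2a was above Ptges3 in 2 of 5 mice, so these neighbors were not separated. Ptgs1 (21.9 ± 9.11 per kb) and Ptges (9.83 ± 4.06 per kb) formed a lower tier, in which Ptgs1 was above Ptges in 4 of 5 mice when each mouse was set against itself. Ptgs2 was last, at 0.62 ± 0.68 per kb. In ApcMin/+; p16cis/cis mice the order was again led by Hpgd (1631 ± 103 per kb, n = 4), Pla2g2a (1011 ± 588) came before Pla2g4a (355 ± 98.4), and Ptgs1, Ptges and Ptgs2 were again the last 3. In ApcMin/+; p16cis/cis replicate 4 Pla2g2a was above Hpgd, at 1539 against 1492 per kb.

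**Figure D1:**
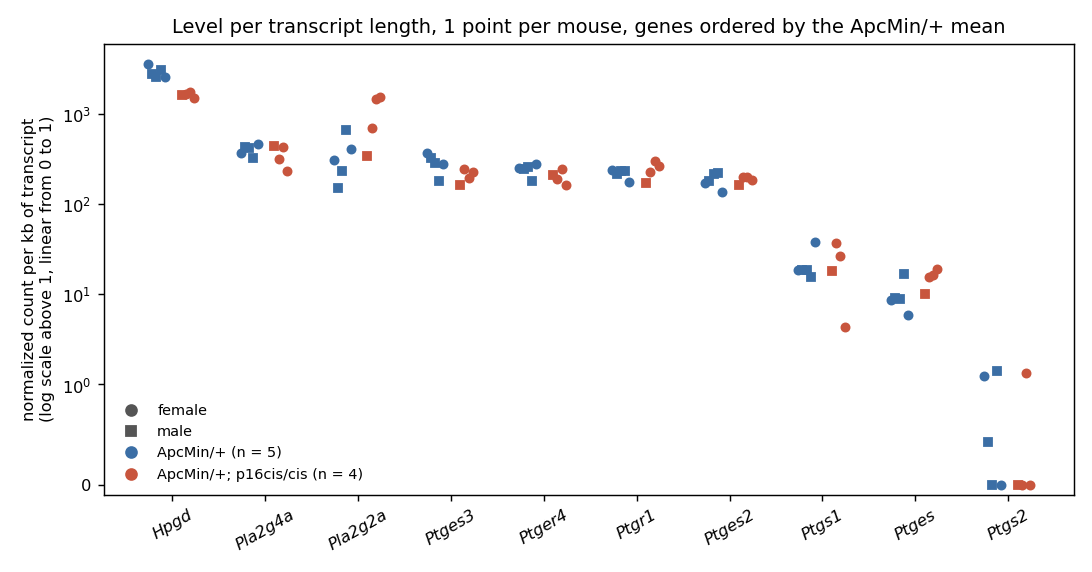
Normalized count per kb of the longest coding transcript (y axis, log scale above 1 and linear from 0 to 1) for the 10 genes, 1 point per mouse, blue for ApcMin/+ and red for ApcMin/+; p16cis/cis, circles for females and squares for males. Hpgd stands above all other members in every mouse of the ApcMin/+ group, 6 genes share a middle range, and Ptgs2 is between 0 and 1.43.

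Of the 2 breakdown enzymes among the members, Hpgd differed between the genotypes and Ptgr1 did not pass the test. The normalized count of Hpgd was 6125, 4748, 4341, 5149 and 4324 in the 5 ApcMin/+ mice, in the order of their replicate numbers, and 2755, 2787, 2929 and 2511 in the 4 with p16 epimutation. The genotypes did not overlap, and the ApcMin/+; p16cis/cis mice lay close together. The mean was 4938 ± 746 (SD, n = 5) against 2745 ± 173 (SD, n = 4), a level 0.56 times that of ApcMin/+ mice (95% CI 0.47 to 0.668). In limma with trended variances on log2(normalized count + 1), the log2 fold change of ApcMin/+; p16cis/cis over ApcMin/+ was -0.84 (SE 0.12), with a p-value of 0.00235 after Benjamini-Hochberg adjustment over the 14410 genes tested. Among the females alone, the ApcMin/+ mice had 6125 and 4324 and the ApcMin/+; p16cis/cis mice 2511 to 2929, and limma gave a log2 fold change of -0.91 (adjusted p = 0.0233). The single ApcMin/+; p16cis/cis male, at 2755, was below the 3 ApcMin/+ males, at 4341 to 5149.

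Hpgd was called a change at an adjusted p-value under 0.05, and so were 16.9% of all genes tested (2434 of 14410), 8.75% as lower and 8.14% as higher in ApcMin/+; p16cis/cis mice. Of the 10 members, 9 reached 10 normalized counts in 4 or more mice and were tested, and 1 of the 9 (11.1%) was called, a share near the background. Hpgd was likewise the 1 tested member whose genotypes did not overlap, where 16.2% of all genes tested did not overlap, 8.95% with lower and 7.24% with higher values in ApcMin/+; p16cis/cis mice. The median log2 fold change of the 9 tested members was -0.22, with 5 values below 0 and 4 above, against -0.004 over all genes tested. The study's methods ask for a fold change over 2 as well, but with DESeq2 and a Bonferroni correction. With that fold change also required in limma with Benjamini-Hochberg adjustment, 0 members were called, against 3.48% of all genes tested. Yet Hpgd had an adjusted p of 0.00235 in limma, and 3 members had an unadjusted p under 0.05. In a bulk sample, fewer cells that express Hpgd and less Hpgd RNA per cell cannot be told apart.

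Ptgr1 is a reductase of 15-keto prostaglandins that also inactivates leukotriene B4. Its normalized count was 556, 497, 535, 540.2 and 409 in the ApcMin/+ mice and 394, 520.0, 688 and 608 in the ApcMin/+; p16cis/cis mice. The genotypes overlapped, and the lowest and the highest mouse of all 9 were both ApcMin/+; p16cis/cis. The log2 fold change was 0.10 with a 95% CI of -0.25 to 0.45 (limma, adjusted p = 0.701).

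**Figure D2:**
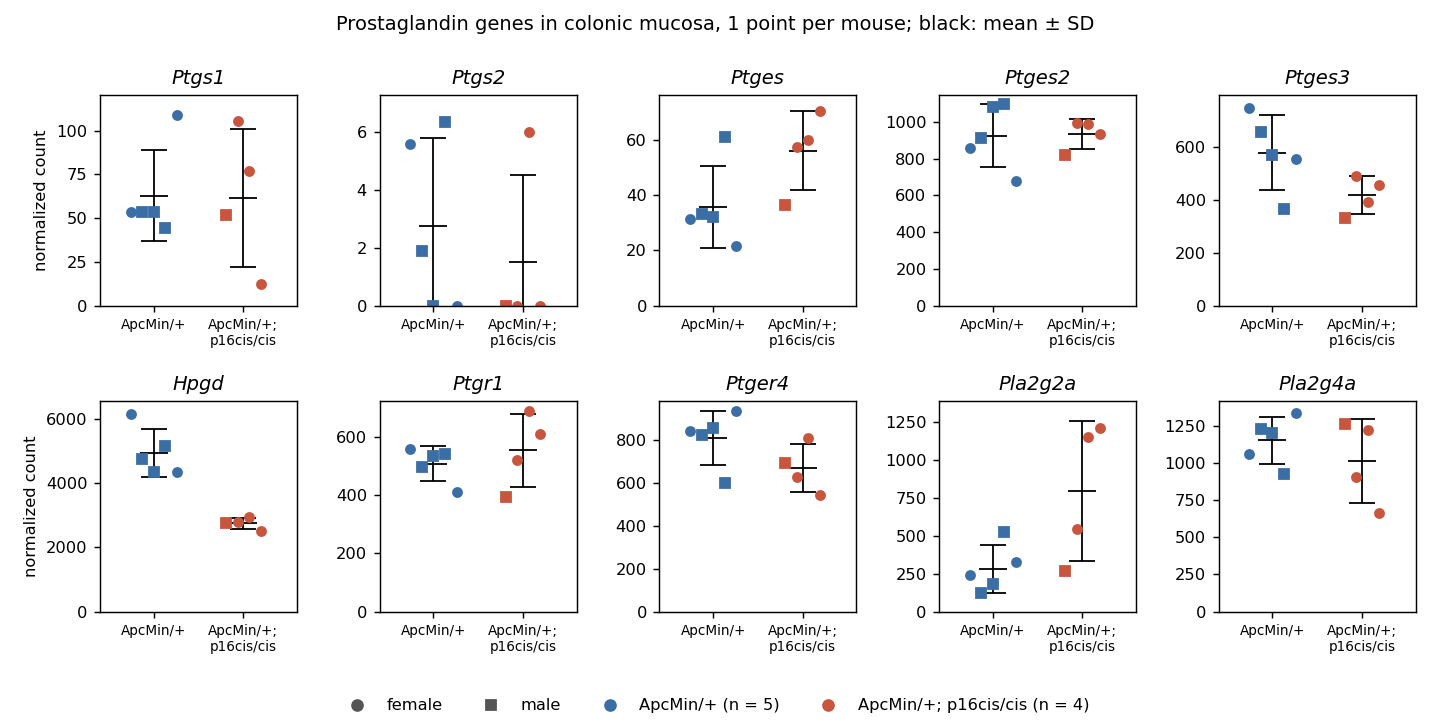
Normalized count (y axis, from 0) of each of the 10 genes in 5 ApcMin/+ mice (blue) and 4 ApcMin/+; p16cis/cis mice (red), 1 point per mouse, circles for females and squares for males, with mean and SD in black. Hpgd is the 1 gene among those tested whose genotypes do not overlap, and Pla2g2a spreads from 119.8 to 1206.

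The phospholipases supply arachidonic acid. Pla2g2a, a secreted phospholipase known from Paneth cells of the small intestine, had normalized counts of 241, 119.8, 184, 525 and 325 in the ApcMin/+ mice and 266, 546, 1153 and 1206 in the ApcMin/+; p16cis/cis mice. The 3 highest mice were the ApcMin/+; p16cis/cis females, while the ApcMin/+; p16cis/cis male lay within the range of the ApcMin/+ mice. The mean was 279 ± 157 (SD, n = 5) against 793 ± 461 (SD, n = 4), and the log2 fold change of 1.44 (95% CI 0.41 to 2.47) was the largest of any member. It did not pass the test over all genes (limma, adjusted p = 0.0559). It did pass in edgeR (adjusted p = 0.0393 with TMM scaling) and in DESeq2 (adjusted p = 0.037), and, in limma, without ApcMin/+ replicate 4 (log2 fold change 1.71, adjusted p = 0.0154) or without the ApcMin/+; p16cis/cis male, replicate 1 (log2 fold change 1.88, adjusted p = 0.017). With the replicate number as a block the adjusted p was 0.0247, and with sex as a covariate it was 0.13 (log2 fold change 1.14). After a correction for GC content and length the log2 fold change was 1.15 (adjusted p = 0.105), and with the share of mitochondrial reads as a covariate it was 0.43 (SE 1.00, adjusted p = 0.946). GENCODE lists Pla2g2a (ENSMUSG00000058908.14, chromosome 4 from 138831857 to 138835186, plus strand) as a polymorphic pseudogene. The allele carried by these mice was not examined here. The gene lies inside Pla2g5, which runs on the opposite strand, with no shared exon.

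Pla2g4a, the cytosolic phospholipase A2 that acts on arachidonate-rich membranes, was at 1062, 1232, 1203, 928 and 1341 normalized counts in the ApcMin/+ mice and at 1262, 909, 1220.2 and 664 in the ApcMin/+; p16cis/cis mice. The genotypes overlapped over most of their range, with ApcMin/+; p16cis/cis replicate 4 the lowest of all 9. The log2 fold change was -0.22 (95% CI -0.62 to 0.18, limma, adjusted p = 0.437).

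The cyclooxygenases were scarce in these samples. Ptgs1, the constitutive enzyme, had normalized counts of 53.6, 53.2, 53.7, 44.5 and 109 in the ApcMin/+ mice and 51.8, 105, 76.6 and 12.5 in the ApcMin/+; p16cis/cis mice. The highest values, 109 and 105, came from 1 mouse of each genotype, and the lowest, 12.5, rested on 8 reads. The log2 fold change of -0.30 had a 95% CI from -1.41 to 0.82 (limma, adjusted p = 0.725), and without ApcMin/+; p16cis/cis replicate 4 the log2 fold change was 0.33. Ptgs2, the inducible enzyme, was counted at 5, 2, 0, 5 and 0 reads in the ApcMin/+ libraries and at 0, 0, 4 and 0 reads in the ApcMin/+; p16cis/cis libraries. It was therefore below the level needed for the test across genes, and its mean normalized count of 2.77 ± 3.04 against 1.5 ± 3.01 differed by less than the SD within either genotype (p = 0.556 in a two-sided exact permutation test). A count of 0 allows up to 3 reads, which was 2.85 to 4.79 normalized counts in these libraries and covers counting error only, so a difference in Ptgs2 was not detectable at this depth.

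The 3 genes of prostaglandin E2 synthesis did not pass the test. Ptges, the inducible microsomal synthase, was at 31.2, 33.3, 32.2, 61.0 and 21.6 normalized counts in the ApcMin/+ mice and at 36.6, 57.4, 60.1 and 70.5 in the ApcMin/+; p16cis/cis mice. All 4 ApcMin/+; p16cis/cis mice were above 4 of the 5 ApcMin/+ mice, the exception being ApcMin/+ replicate 4. The log2 fold change was 0.68 (95% CI -0.01 to 1.36, limma, adjusted p = 0.155). Ptges2, a membrane-associated synthase expressed in most cells, had 859, 909, 1081, 1096 and 678 normalized counts in the ApcMin/+ mice and 817, 994, 990.3 and 932 in the ApcMin/+; p16cis/cis mice. The ApcMin/+; p16cis/cis values fell inside the ApcMin/+ range, and the log2 fold change of 0.03 had the narrowest interval among these synthases (95% CI -0.28 to 0.34, limma, adjusted p = 0.907). Ptges3, the cytosolic synthase better known as p23, a co-chaperone of Hsp90, had 748, 657, 571, 366 and 553 normalized counts in the ApcMin/+ mice and 329.6, 489.7, 394 and 457 in the ApcMin/+; p16cis/cis mice. Here 4 of 5 ApcMin/+ mice were above all ApcMin/+; p16cis/cis mice, again with ApcMin/+ replicate 4 as the exception, and the log2 fold change was -0.45 (95% CI -0.87 to -0.02, limma, adjusted p = 0.13).

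Ptger4, the Gs-coupled receptor for prostaglandin E2, was well expressed. Its normalized count was 841, 823, 858, 599 and 935 in the ApcMin/+ mice and 692, 630.1, 811 and 545 in the ApcMin/+; p16cis/cis mice. The ApcMin/+; p16cis/cis mice were below 4 of the 5 ApcMin/+ mice, and ApcMin/+ replicate 4 lay among them. The log2 fold change was -0.28 (95% CI -0.60 to 0.05, limma, adjusted p = 0.223). Exons of Ptger4 overlap those of Ttc33 on the opposite strand in GENCODE, and since the strandedness of the libraries was not given in the sources used here, reads in that overlap cannot be assigned to one of the genes.

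The mouse labelled ApcMin/+ replicate 4 therefore decided several calls. Without it, limma called 5 of the 9 tested members instead of 1. Calls also rose over the whole table, to 3488 of the 14410 genes tested, against 2434 with all 9 mice. Ptges (log2 fold change 0.88, adjusted p = 0.0363) and Pla2g2a (1.71, adjusted p = 0.0154) were then called higher in ApcMin/+; p16cis/cis mice. Ptges3 (-0.60, adjusted p = 0.0138), Ptger4 (-0.38, adjusted p = 0.045) and Hpgd (-0.82, adjusted p = 0.00127) were called lower. Hpgd stayed called with any 1 of the 9 mice left out, with log2 fold changes from -0.88 to -0.76 and adjusted p-values from 0.00127 to 0.0111. Replicate 4 had the highest sum of the colonocyte markers described further on, 267977 normalized counts against 126147 to 143346 in the other ApcMin/+ mice; the part of this difference in the calls was not tested.

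**Figure D3:**
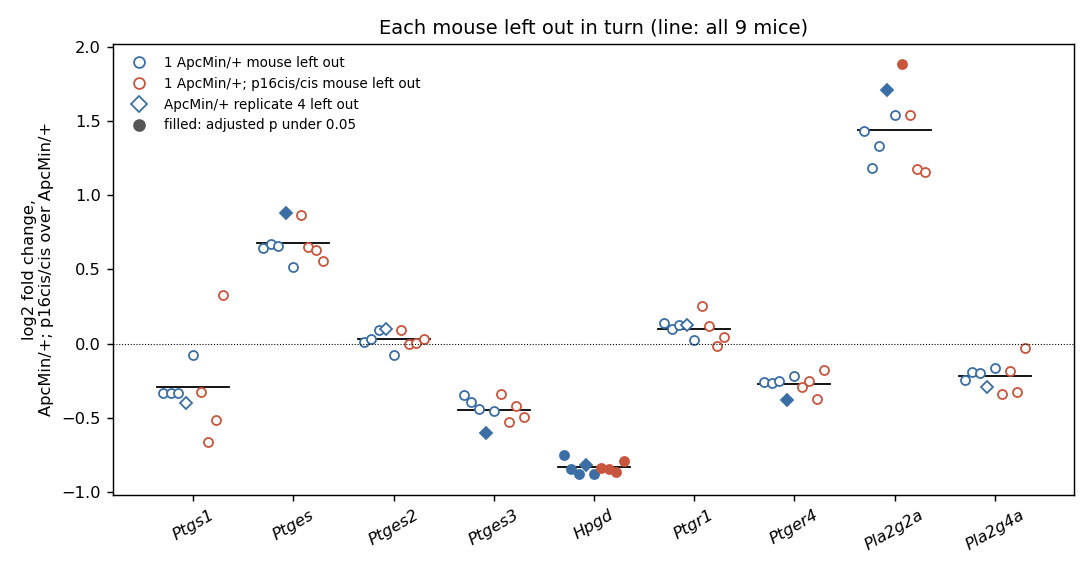
Log2 fold change of ApcMin/+; p16cis/cis over ApcMin/+ (y axis) for the 9 tested members with each mouse left out in turn, blue where an ApcMin/+ mouse and red where an ApcMin/+; p16cis/cis mouse was left out, diamonds for ApcMin/+ replicate 4, filled where the adjusted p was under 0.05 and a black line for all 9 mice. Hpgd is filled at all 9 positions, and 5 members are filled without ApcMin/+ replicate 4.

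A wider list of 46 other genes of prostanoid and leukotriene metabolism was set beside the members. Of these 28 passed the filter and 4 (14.3%) were called, 1 lower and 3 higher, again near the 16.9% of all genes tested, with a median log2 fold change of 0.08. Ptgr2, the second step of the Hpgd route, was the 1 called gene among 5 of breakdown and transport. It had 625, 615, 621, 528 and 619.8 normalized counts in the ApcMin/+ mice and 444, 399, 412 and 282 in the ApcMin/+; p16cis/cis mice, with no overlap (log2 fold change -0.66, SE 0.14, limma, adjusted p = 0.0102). The call was kept with any 1 mouse left out, and in females alone the log2 fold change was -0.79 (SE 0.21, adjusted p = 0.0539). Its exons overlap those of Gm47484, a noncoding RNA from the opposite strand of the same promoter region. The most abundant uncalled gene of this group was Cbr1, a carbonyl reductase that also acts on prostaglandins, at means of 6016 and 6075 normalized counts (log2 fold change 0.07, adjusted p = 0.859).

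Among 11 tested phospholipases other than the members, Pla2g16, a phospholipase A abundant in adipose tissue, was the 1 called. It had 1067, 1251, 1236, 1264 and 1270.2 normalized counts in the ApcMin/+ mice and 1518, 1569.6, 2128 and 1681 in the ApcMin/+; p16cis/cis mice. All ApcMin/+; p16cis/cis mice were higher (log2 fold change 0.49, SE 0.11, limma, adjusted p = 0.0154). In females alone the log2 fold change was 0.61 (SE 0.17, adjusted p = 0.0662). Pla2g10, a secreted phospholipase with high activity on phosphatidylcholine, was the most abundant uncalled one, at means of 1802 and 1711 (adjusted p = 0.808). Of 3 other prostanoid synthases tested, Akr1b3, aldose reductase, which can also make prostaglandin F2α, was called higher. Its mean was 224 ± 26.8 against 306 ± 30.5 normalized counts (log2 fold change 0.45, limma, adjusted p = 0.0411), with 1 overlap, between ApcMin/+ replicate 4 at 269 and ApcMin/+; p16cis/cis replicate 2 at 262. The uncalled Fam213b, a prostamide and prostaglandin F synthase, had means of 252 and 188 (log2 fold change -0.37, adjusted p = 0.216). It was called lower after the GC and length correction, with a log2 fold change of -0.74 (adjusted p = 0.0159), and of -0.77 (adjusted p = 0.0307) with the replicate block added.

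The receptors other than Ptger4 were sparse. Of 8 such genes 2 passed the filter and limma called 0 (1 had an unadjusted p under 0.05), as did edgeR, while DESeq2 called 1. Ptger3, a Gi-coupled receptor for prostaglandin E2, had 121, 164, 182, 266 and 101 normalized counts in the ApcMin/+ mice and 138, 84.5, 90.2 and 70.5 in the ApcMin/+; p16cis/cis mice. The ApcMin/+; p16cis/cis male overlapped the ApcMin/+ mice and the 3 females lay below all of them (log2 fold change -0.76, SE 0.28, limma, adjusted p = 0.0851). The 2 ApcMin/+ females, at 121 and 101, were the lowest of their genotype. With sex as a covariate the log2 fold change was -0.47 (limma, adjusted p = 0.148), and in females only -0.44 (adjusted p = 0.362). Ptger3 was the gene called by DESeq2. In the leukotriene branch 1 of 7 tested genes was called. Ltc4s, which joins leukotriene A4 to glutathione, had 44.6, 29.5, 29.3, 24.2 and 38.6 normalized counts in the ApcMin/+ mice and 46.7, 108, 114 and 47.0 in the ApcMin/+; p16cis/cis mice. No mouse overlapped, but 2 of the ApcMin/+; p16cis/cis mice were just above the highest ApcMin/+ mouse (log2 fold change 1.13, SE 0.33, limma, adjusted p = 0.0374). Its exons overlap those of the antisense gene Gm26542. Lta4h, which makes leukotriene B4, was abundant and not called, with means of 2572 and 2317 (adjusted p = 0.253). The call of Akr1b3 was lost in 13 of 22 alternatives, although its log2 fold change was 0.41 to 0.74 in all of them. The call of Ltc4s was lost in 11 of 22, with a log2 fold change of 0.66 (adjusted p = 0.235) after the GC and length correction and 0.10 (adjusted p = 0.983) with the share of mitochondrial reads as a covariate.

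**Figure D4:**
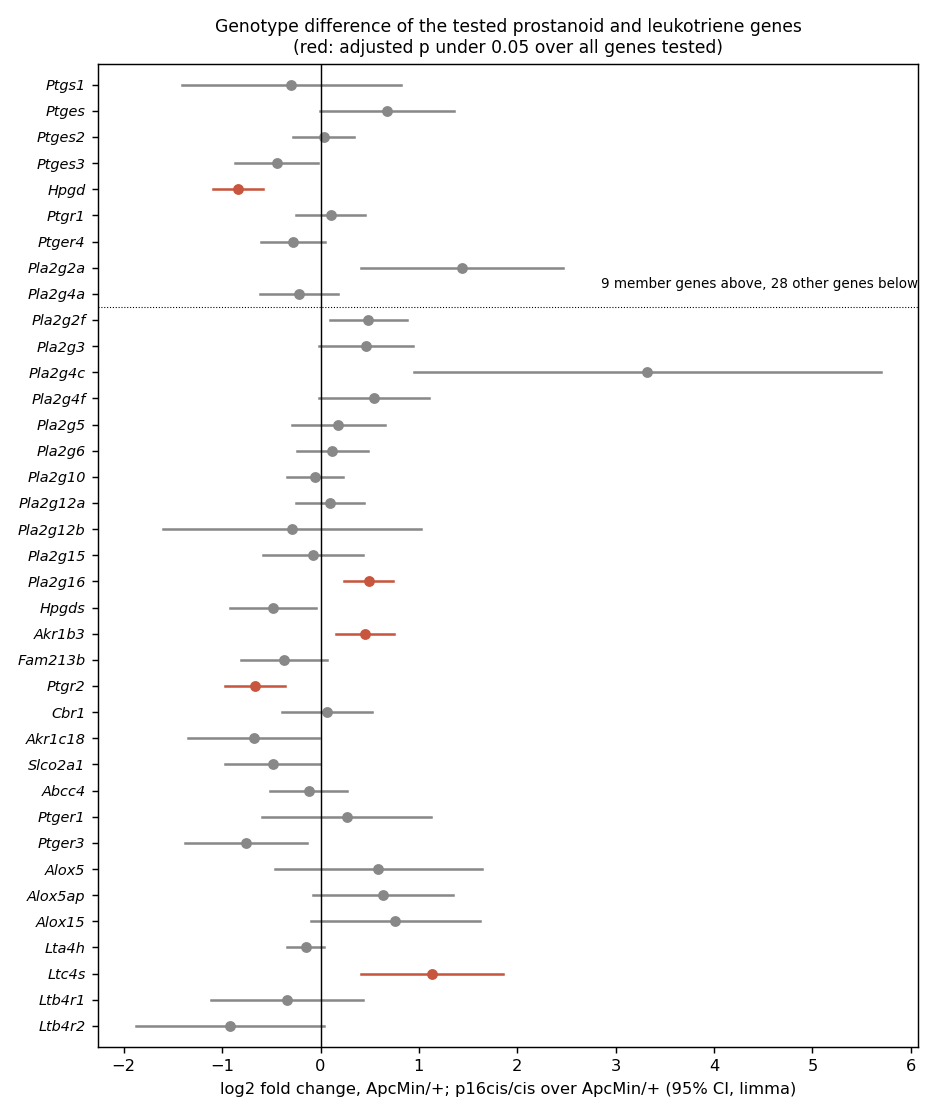
Log2 fold change of ApcMin/+; p16cis/cis over ApcMin/+ (x axis) with its 95% CI from limma for the 9 tested members, above the dotted line, and 28 other tested genes of prostanoid and leukotriene metabolism. Red marks the 5 genes with an adjusted p under 0.05, namely Hpgd and Ptgr2 below 0 and Pla2g16, Akr1b3 and Ltc4s above it.

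The profile of Hpgd over the 9 mice was most like that of 3 genes. On log2 values, Pearson's r with Hpgd was 0.98 for Tspan8, a tetraspanin of epithelial cells, 0.96 for Mylk, the myosin light chain kinase, and 0.96 for Vps33a, a subunit of vesicle tethering complexes. These are the highest values among 14410 genes in 9 mice, and all 3 genes share with Hpgd the lower level in ApcMin/+; p16cis/cis mice. On deviations from the genotype means the r values were 0.78, 0.83 and 0.87. They are given as a description.

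Measures of the libraries differed between the genotypes too, while none of the 8 sums of cell type markers passed after adjustment over the lists. With 5 against 4 mice, 1 list alone could not pass that adjustment. The share of reads on 37 mitochondrial genes was 8.74 to 15.6% in the ApcMin/+ mice and 19.3 to 29.8% in the ApcMin/+; p16cis/cis mice, and reads on genes were fewer in the latter (both exact permutation tests, two-sided, p = 0.0159, the smallest that 5 against 4 mice allow, and 0.0159 after adjustment over these 2 measures). With the mitochondrial share as a covariate the log2 fold change of Hpgd was -0.99, its SE rose from 0.12 to 0.26 and its adjusted p was 0.848. Genotype takes up 78.1% of the variance of that share, so the 2 cannot be told apart here. The 7 epithelial markers were strongly expressed, with sums of 172925 to 258414 normalized counts and adjusted p-values from 0.0876 to 0.983 (limma). Of 6 colonocyte markers 1 (Slc26a3) was called lower. All 6 log2 fold changes were below 0, from -1.23 for Slc26a3 to -0.17 for Guca2a, with a median of -0.58. Their sum was 126147 to 267977 in the ApcMin/+ mice and 87974 to 115050 with p16 epimutation (two-sided exact permutation test, p = 0.0159, adjusted over 8 lists p = 0.127). Car1 made up the largest part of it, at means of 92501 and 51029 (log2 fold change -0.81, limma, adjusted p = 0.075). The colonocyte sum and Hpgd were both lower with p16 epimutation, and for neither did the genotypes overlap. In the order of replicate numbers, the sums were 128939, 126147, 143346, 267977 and 130088 in the ApcMin/+ mice. In the ApcMin/+; p16cis/cis mice they were 87974, 115050, 102658 and 94056. The relation of the colonocyte sum to Hpgd over the mice, and its part in the Hpgd difference, were not tested.

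Of 7 goblet markers 1 (Spink4) was called higher, with sums of 283594 to 437281 and 302681 to 583408. Zg16 went the other way, with a log2 fold change of -0.89 (limma, adjusted p = 0.0775). Muc2, Tff3, Fcgbp, Clca1 and Agr2 were at 0.17 to 0.66 (adjusted p from 0.125 to 0.696). Tuft cell markers were present, and the 8 tested had adjusted p-values from 0.0575 to 0.935 (limma). Log2 fold changes were above 0 for all 8, from 0.08 (Rgs13) to 1.10 (Sh2d6), with a median of 0.40. The tuft sums were 859 to 3648 and 1416 to 3669, with Dclk1 at 141 to 1001, Trpm5 at 163 to 935 and Pou2f3 at 24.2 to 139.7 over all mice. Stromal markers were low, with 1 of 7 tested (Col3a1) called lower and Col1a1 at 10.2 to 97.1. Log2 fold changes were below 0 for all 7, from -2.92 (Col3a1) to -0.56 (Col1a1), with a median of -1.47. The stromal sums were 100.4 to 597 and 59.5 to 233 (two-sided exact permutation test, p = 0.0317, adjusted p = 0.127). For leukocyte and myeloid markers 1 of 6 tested (Lyz2) was called lower, with sums of 1106 to 2095.6 and 1640.3 to 1704 and Ptprc at 30.5 to 750.3. These sums were carried mostly by Cd14, with a log2 fold change of 0.38 (limma, adjusted p = 0.129). The other uncalled markers went both ways, with Ptprc at -0.70 (adjusted p = 0.522), Csf1r at -1.035 (0.104), Itgam at -0.02 (0.968) and Cd68 at 0.85 (0.0903). Adgre1, not tested, was at 0 in all 4 ApcMin/+; p16cis/cis mice against a mean of 3.75. The mast cell list had its defining marker Cpa3 at 0 to 4.51, and its sum (1466 to 1933 and 1281 to 1667) was carried by Kit. The other 4 mast cell markers tested had log2 fold changes above 0, namely Tpsb2 (1.25, adjusted p = 0.0979), Cma1 (1.08, adjusted p = 0.0882), Mcpt1 (1.03, adjusted p = 0.241) and Mcpt2 (0.45, adjusted p = 0.437), beside 1.13 for Ltc4s, and their part in the Ltc4s difference was not tested. The endothelial sums (135 to 302 and 129 to 279) were carried by Vwf, with a log2 fold change of 0.43 (adjusted p = 0.36), while Pecam1 was at -0.92 (adjusted p = 0.0766), and Cdh5 and Kdr were at 0 in all 4 ApcMin/+; p16cis/cis mice against means of 11.55 and 11.96 normalized counts. Markers other than the defining ones are named for the values seen.

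A pair of members was set against a marker list over the 9 mice. Both relations were chosen after their values were seen, so they are a description with no test. For Ptgs1, known in tuft cells of the gut, and the sum of 9 tuft markers, Pearson's r was 0.61 and Spearman's rho 0.77. Without the 2 mice farthest from the median of the tuft sum r was 0.83, and on deviations from the genotype means it was 0.73. For Pla2g2a and the sum of 7 goblet markers, r was 0.82 and rho 0.83. Without the 2 mice farthest from the median of the goblet sum r was 0.64, and on deviations from the genotype means 0.86. Sex is not evenly spread between the genotypes, and its part in these relations was not tested.

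**Figure D5:**
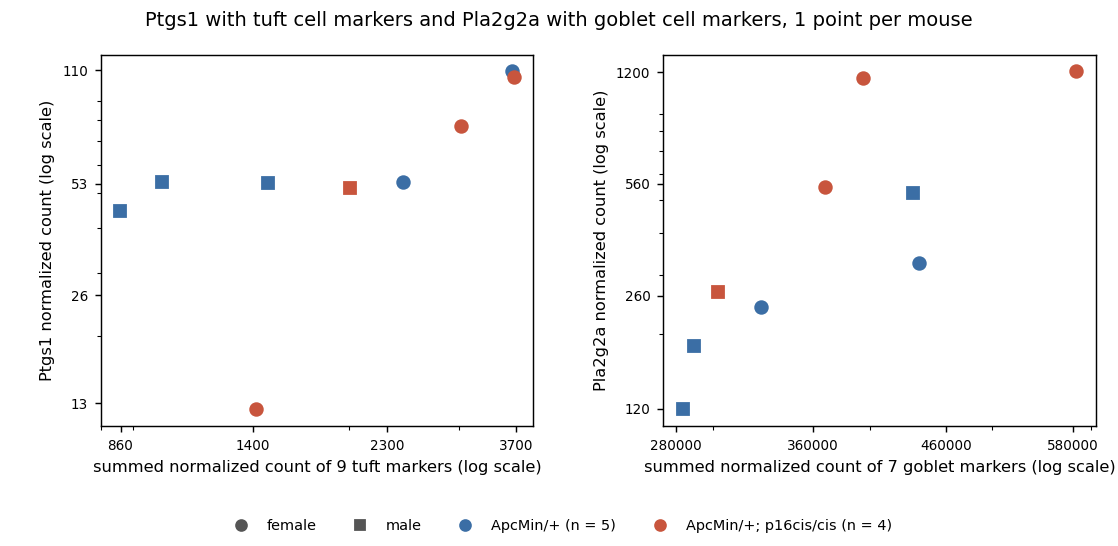
Left, Ptgs1 against the sum of 9 tuft cell markers, and right, Pla2g2a against the sum of 7 goblet cell markers, all as normalized counts on log axes, 1 point per mouse, blue for ApcMin/+ and red for ApcMin/+; p16cis/cis, circles for females and squares for males. Pearson's r on log2 values is 0.61 on the left, where ApcMin/+; p16cis/cis replicate 4 at 12.5 lies apart, and 0.82 on the right.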

How the data were processed

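RNA-seq of colonic mucosa from 9 mice was analyzed. The signal values the authors deposited are normalized counts, each library having been scaled by its own size factor. Per the methods, the authors sequenced on the BGISEQ-500, aligned with BOWTIE2, quantified with RSEM and compared genotypes with DESeq2. The genome build, annotation, strandedness and versions are not given in the sources used here. The identifiers of 54079 of 54146 listed genes were in GENCODE M21 (GRCm38), the source of coordinates and lengths, and promoters came from RefSeq.

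Divided by the value of 1 read, 100% of the positive values were whole to within 0.01 reads, and the recovered totals were 13523500 to 17885918 reads per mouse. Floors of 3 reads cover counting error only. Genes reaching 10 normalized counts in 4 or more mice (14410) were tested on log2(normalized count + 1) with limma 3.58.1 (R 4.3.3, trended variances) for genotype alone, with Benjamini-Hochberg adjustment over all of them. Fold changes are on that log2 scale, which understates the change of low genes. Alternatives were DESeq2 1.42.0 and edgeR 4.0.16 (quasi-likelihood) on the recovered counts, other filters, scalings and pseudocounts, each mouse left out, the replicate block, sex, females only, the mitochondrial share and a GC and length correction (loess, span 0.5). The procedure was tested on simulated counts. Exact permutation tests of single values used all 126 ways to divide the 9 mice into 5 and 4.

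The members and lists were chosen with earlier results of these data known. All 10 members are named, of the 46 other pathway genes every called one and the most abundant uncalled one of each role, defining markers, and the 3 genes most like a called member. Same-numbered mice of the genotypes are different animals, and the correlations of their deviations from the group means were -0.175, 0.066, 0.0465 and 0.142, so mice were not paired by number.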

Additional observations from a re-analysis of the deposited data

Results flagged for a closer look

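The groups checked were members, other pathway genes, the mitochondrial share and the reads on genes, each within 1 genotype. In 4 of the 42 groups, 1 mouse lay so far from the rest of its genotype that its gap passed Dixon's 95% critical value. Chance gives about 2.1 (1 in 20). Ptgs1 was at 109 normalized counts in ApcMin/+ replicate 5, against 44.5 to 53.7 in the other ApcMin/+ mice. Ptgs2 was at 6.01 in ApcMin/+; p16cis/cis replicate 3, against 0 in the others, which is 4 reads. Pla2g16 was at 1067 in ApcMin/+ replicate 1, against 1236 to 1270.2, and without that mouse its log2 fold change was 0.44 (limma, adjusted p = 0.0357). Ptgr2 was at 528 in ApcMin/+ replicate 4, against 615 to 625, and without that mouse its log2 fold change was -0.71 (limma, adjusted p = 0.00502). The causes were not tested. No member had a difference of genotype effect between the sexes that passed the test (limma interaction, lowest adjusted p = 0.722), with 1 male in the ApcMin/+; p16cis/cis group.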

How the results depend on the processing

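Hpgd kept its direction in all 22 alternatives and its call in 21, with log2 fold changes from -0.99 to -0.73, and the exception was the mitochondrial share as a covariate (-0.99, adjusted p = 0.848). The number of members called was 0 with a fold change over 2 also required and with the mitochondrial share, and 2 in edgeR (TMM and RLE), in DESeq2, with at least 10 in every mouse, in females only, with the replicate block and with the GC and length correction plus block, the second being Pla2g2a in each. Over all genes, edgeR called 2469 (TMM) and 2460 (RLE) and DESeq2 3230 of 14410, and the filter of at least 10 in every mouse 2373 of 12568. With a mouse left out, 1 to 5 members were called. Of the other pathway genes, 1 was called with the fold change, 2 with sex as a covariate, 0 in females only, 0 with the mitochondrial share and 2 to 7 with a mouse left out. Under the same settings all genes gave 501, 1437, 898, 0 (798 at an unadjusted p under 0.05 in limma) and 1183 to 3488, and 1288 with the GC and length correction plus block. The replicate block, in which ApcMin/+ replicate 5 has no partner, gave 2 members, 4 pathway genes and 2074 genes in all.

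Directions that turned were all in genes not called. With a mouse left out, the log2 fold change ranged from -0.665 to 0.326 for Ptgs1 (positive without the p16cis/cis mouse numbered 4), -0.0759 to 0.0973 for Ptges2, -0.0141 to 0.254 for Ptgr1, -0.157 to 0.0309 for Pla2g10 and -0.0428 to 0.249 for Cbr1. The replicate block gave -0.0759 for Ptges2 and -0.0245 for Cbr1. The GC and length correction gave -0.00244 for Ptges2, and with the block -0.128 for Ptges2 and -0.00487 for Cbr1. With the mitochondrial share Ptgr1 was at -0.0301, Pla2g4a at 0.246, Pla2g10 at 0.0941 and Ptger3 at 0.292. Pla2g10 was at 0.0098 with sex as a covariate and 0.0742 in females only. The causes were not tested. Depth limits Ptgs2 and most receptors, which had a few reads or 0 per library.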

Other observations

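Among the phospholipases not called by the main test, Pla2g4c, a membrane-bound relative of Pla2g4a, spread most widely, and it is named because its values were seen. In the ApcMin/+ mice its normalized count was 48.5, 32.2 and 40.7 in the 3 males and 683 and 2276 in the 2 females. In the ApcMin/+; p16cis/cis mice it was 945 in the male and 2058, 1498 and 2281 in the 3 females. The ApcMin/+; p16cis/cis male was thus above all ApcMin/+ males, while the females of both genotypes overlapped. The log2 fold change was 3.32 (SE 1.09, limma, adjusted p = 0.056). Pla2g4c was called higher in 6 of 22 alternatives, namely with no filter (adjusted p = 0.0493), with at least 10 in every mouse (0.0493), with the replicate block (0.0144), with the GC and length correction plus block (0.0196) and without ApcMin/+ replicate 1 (0.0429) or replicate 5 (0.0104). The replicate block, where replicate 5 has no partner, and the fit without replicate 5 gave the same log2 fold change, 4.28. In females only its log2 fold change was 0.62 (adjusted p = 0.375), in edgeR with TMM scaling 1.46 (adjusted p = 0.328), and with the mitochondrial share as a covariate -1.26 (adjusted p = 0.926). The cause of this pattern was not tested.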
